A study of Homo sapiens with 21 samples.

Results

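Described here are 6 libraries of the human leukaemia line MV4-11 with a CRISPR knockout of PGP, of 21 libraries in the series: 3 treated with ironomycin for 24 h and 3 treated with the solvent DMSO. They were chosen by their labels, as the count columns of that genotype under each treatment. The other libraries, used where stated, are MV4-11 cells with a CRISPR knockout of HK2 (ironomycin for 24 h, and DMSO) and wild type MV4-11 cells (ironomycin for 6 h and for 24 h, and DMSO), with 3 libraries in each group. MV4-11 is a biphenotypic B and myelomonocytic line. The labels give no time for DMSO, no edited site, no clone and no dose. Whether the replicates are independent cultures is not given either; p-values thus reflect the spread among the libraries alone, which may be technical.

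Ironomycin, also called AM5, is a synthetic derivative of the ionophore salinomycin that is known to interfere with iron in the lysosome, and the series title concerns mitochondrial iron. PGP encodes phosphoglycolate phosphatase, which hydrolyses side products of glycolytic enzymes, and HK2 encodes hexokinase 2, which phosphorylates glucose. Iron is needed for iron-sulfur clusters and heme, and through them for the respiratory chain and for enzymes of DNA synthesis. The comparison asks which transcripts differed after 24 h of ironomycin in cells edited for PGP, and whether that response differed from the response of the other genotypes.

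Transcripts were measured as 3′ tags, that is, reads near the end of each polyadenylated RNA, counted per gene. The 24 h libraries of the PGP knockout held 4672773, 4290098 and 5029839 counts, and the DMSO libraries 3829274, 4897649 and 4765093. Levels below are CPM (the usual depth-normalised counts), after scaling of library sizes by the trimmed mean of M values (TMM). Fold changes are log2 values ± SE, 24 h minus DMSO, with n = 3 libraries per group. A gene counted as called, having risen or fallen, when edgeR's quasi-likelihood test gave it an adjusted p under 0.05 (Benjamini-Hochberg, 11610 genes). On the first principal component of the 6 libraries (59.9% of the variance) the 24 h libraries stood at 40.3, 34.6 and 33.2, against −37.4, −33.9 and −36.8 for the DMSO libraries. The second (14.3%) set replicate 1 of both treatments apart, at 21.4 in ironomycin and 27.8 in DMSO, from the other 4 libraries, at −14.8 to −7.8. Tags of the T-cell markers summed to 0.209, 14.6 and 0.779 CPM in the 24 h libraries, against 0.535, 2.55 and 0 CPM in the DMSO libraries. Their part in the results was not tested. Of the markers of MV4-11, CD33, FLT3, HOXA9 and MEIS1 were present in both groups, LYZ lay under the filter on low counts, and of 10 markers of other tissues 7, among them EPCAM, CDH1, COL1A2 and DCN, had no count. The list of 10 summed to 165.0, 98.3 and 98.4 CPM in the 24 h libraries, against 110.7, 97.5 and 90.6 CPM in the DMSO libraries, mostly from vimentin (VIM), which leucocytes also express. Erythroid markers summed to 11.1, 9.30 and 11.1 CPM in the 24 h libraries, against 6.42, 6.16 and 4.61 CPM in the DMSO libraries, and the part of these lists in the results was not tested either.

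The targeted transcript was still present. PGP (ENSG00000184207) had 63.0, 63.0 and 53.2 CPM in the 24 h libraries, against 71.7, 71.0 and 83.6 CPM in the DMSO libraries. The groups did not overlap, and the fold change was -0.34 ± 0.13 (edgeR adjusted p = 0.0433). The call was lost without DMSO replicate 2 (adjusted p = 0.0519), DMSO replicate 3 (0.144) or 24 h replicate 3 (0.133). Tags at the 3′ end can persist after editing, so these levels leave the knockout unchecked. HK2 (ENSG00000159399) had 33.3, 33.7 and 42.1 CPM at 24 h, against 45.2, 36.1 and 48.1 CPM in DMSO (-0.24 ± 0.28, adjusted p = 0.548).

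In all, 3661 of 11610 genes were called, which is 31.5% of those tested: 1869 rose (16.1%) and 1792 fell (15.4%). Of these, 794 rose and 350 fell at least 2-fold. The libraries of the groups did not overlap for 5116 genes, or 44.1%. Of the called genes, 2237 were called in every refit that left out 1 of the 6 libraries. The median of all genes was 0.04. Each gene group below is described by how many of its tested members were called and by its median, which are to be read against these shares and this median.

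**Figure D1:**
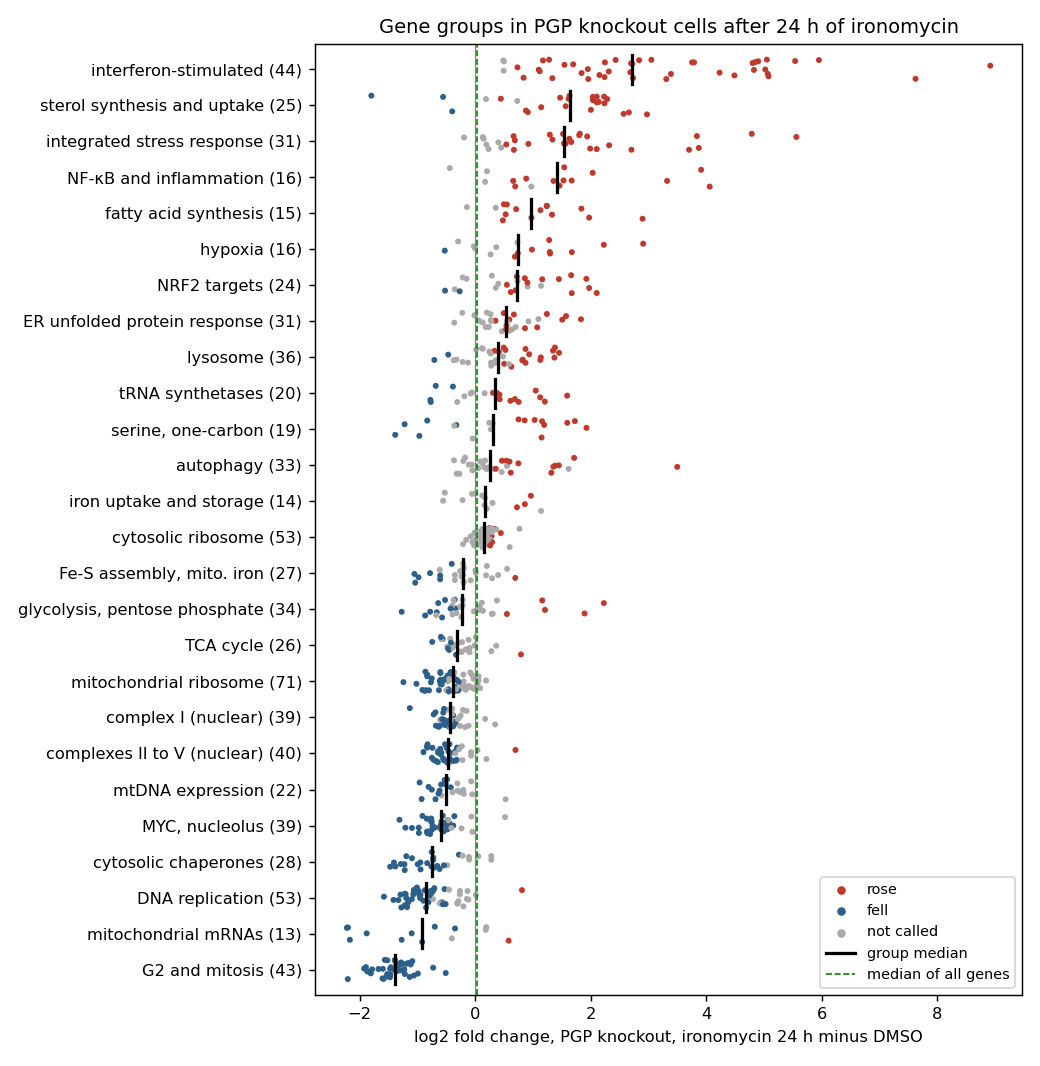
Log2 fold change (ironomycin 24 h minus DMSO) of each tested member of 26 gene groups in PGP knockout cells, with red points for genes that rose, blue for genes that fell and grey for genes not called; black bars are group medians and the number of members stands in brackets. Interferon-stimulated genes lie farthest to the right, with a median of 2.71, and G2 and mitosis genes farthest to the left, with a median of -1.39.

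Many of the largest rises were in genes of the interferon response. Type I interferons act through a transcription factor complex that contains STAT2 and IRF9 and binds the interferon-stimulated response element in the promoters of antiviral genes. Of 44 tested members of the list, 41 rose and none fell, with a median of 2.71. The 3 that were not called were IFI35 (0.49 ± 0.32), IRF1 (0.49 ± 0.20) and BST2 (0.49 ± 0.26). With the replicate number as a block, IRF1 (edgeR adjusted p = 0.0181) and BST2 (adjusted p = 0.0206) were also called, so that 43 members rose.

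Promoters of 5 of these genes are shown because their transcripts had the largest fold changes among members whose promoter window held the element. Each is the RefSeq sequence (GRCh38.p14) from 250 bases before to 50 bases after the annotated start, read on the strand of the gene, with each match to GAAANNGAA on either strand in capitals. EPSTI1 lies at chr13:42992192-42992491 (minus strand), IFI44L at chr1:78620198-78620497 (plus), CXCL10 at chr4:76023448-76023747 (minus), IFI44 at chr1:78649539-78649838 (plus) and IFIT1 at chr10:89392373-89392672 (plus).
EPSTI1: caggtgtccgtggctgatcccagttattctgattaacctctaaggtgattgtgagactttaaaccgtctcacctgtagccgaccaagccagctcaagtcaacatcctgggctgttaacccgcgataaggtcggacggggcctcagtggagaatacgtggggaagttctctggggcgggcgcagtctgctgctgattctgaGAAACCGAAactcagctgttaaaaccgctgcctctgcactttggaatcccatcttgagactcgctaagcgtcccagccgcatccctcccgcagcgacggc
IFI44L: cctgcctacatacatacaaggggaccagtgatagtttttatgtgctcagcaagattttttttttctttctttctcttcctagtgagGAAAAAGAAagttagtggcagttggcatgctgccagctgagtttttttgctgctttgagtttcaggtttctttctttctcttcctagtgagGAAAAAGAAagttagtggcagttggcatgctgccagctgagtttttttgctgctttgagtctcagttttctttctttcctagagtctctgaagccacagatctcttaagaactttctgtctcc
CXCL10: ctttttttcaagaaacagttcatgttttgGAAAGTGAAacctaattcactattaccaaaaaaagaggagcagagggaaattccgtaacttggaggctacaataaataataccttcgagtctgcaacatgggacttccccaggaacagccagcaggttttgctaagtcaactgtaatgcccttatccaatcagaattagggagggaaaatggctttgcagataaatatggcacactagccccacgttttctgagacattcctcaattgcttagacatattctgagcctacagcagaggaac
IFI44: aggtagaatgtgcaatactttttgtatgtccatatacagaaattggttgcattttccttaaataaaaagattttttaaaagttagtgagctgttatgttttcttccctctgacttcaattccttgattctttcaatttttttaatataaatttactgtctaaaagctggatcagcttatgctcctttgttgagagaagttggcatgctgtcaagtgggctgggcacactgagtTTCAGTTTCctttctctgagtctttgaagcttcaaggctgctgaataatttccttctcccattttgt
IFIT1: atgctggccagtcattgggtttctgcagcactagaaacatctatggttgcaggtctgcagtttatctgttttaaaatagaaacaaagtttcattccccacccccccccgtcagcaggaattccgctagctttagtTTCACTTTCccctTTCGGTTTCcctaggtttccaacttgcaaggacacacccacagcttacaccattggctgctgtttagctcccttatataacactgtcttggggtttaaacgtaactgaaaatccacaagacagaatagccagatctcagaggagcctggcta

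A window was at hand for 34 of the 44 members, and 25 of these held the motif in at least 1 window. It was in 30 of the 46 windows of members (65.2%) and in 2847 of the 35116 windows in the RefSeq table (8.11%). A match is a description of the letters and not a binding site.

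Each of these 5 genes was at or near 0 without the drug. EPSTI1, an epithelial-stromal interaction gene induced by interferon, had 127, 23 and 26 counts in the 24 h libraries, against none in the DMSO libraries, which is at least 53.7-fold higher when the DMSO group is set at 3 counts in all. This bound was 22.5 without 24 h replicate 1, 34.2 without DMSO replicate 2 and 34.9 without DMSO replicate 3. IFI44L, an interferon-induced antiviral gene, had 224, 24 and 40 counts at 24 h, against 0, 0 and 1 in DMSO, a ratio of 263.5 with an exact 95% interval of 46.9 to 10440 that covers counting error only. The ratio was 88.2 without 24 h replicate 1 and 168.1 without DMSO replicate 2, and without DMSO replicate 3, which leaves no DMSO count, the bound was 57.0. CXCL10, a chemokine that attracts T cells, had 119, 52 and 53 counts at 24 h, against 0, 0 and 3 in DMSO (ratio 68.3, interval 23.1 to 333.8); without DMSO replicate 2 the ratio was 43.6, and without DMSO replicate 3 the bound was 44.4. IFI44, the neighbour of IFI44L, had 92, 13 and 13 counts at 24 h, against 0, 1 and 1 in DMSO (ratio 54.0, interval 14.6 to 451.0, and 17.9 without 24 h replicate 1). IFIT1, which binds viral RNA that lacks the host cap, had 27.2, 6.74 and 7.21 CPM at 24 h, against 0, 0.637 and 0.439 CPM in DMSO. Its fold change was 5.08 ± 0.71, and 4.08 without 24 h replicate 1.

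One library stood above the others for this list. Relative to the mean of the other 2 libraries of its group, 24 h replicate 1 was higher for 44 of 44 members, with a median of 1.51 (log2, pseudocount 0.5 CPM). DMSO replicate 1 had a median of 0.01. Summed over the list, the 24 h libraries held 3605, 1684 and 1602 CPM, against 645.5, 634.2 and 574.5 CPM in the DMSO libraries. Replicates 2 and 3 at 24 h were therefore also above every DMSO library. Without 24 h replicate 1, 37 members still rose and the median was 2.19.

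Other members showed how far this library set their values. IFIT3, a partner of IFIT1, had 88.8, 25.1 and 34.3 CPM at 24 h, against 0.802, 2.34 and 1.10 CPM in DMSO (5.06 ± 0.62, and 4.31 without 24 h replicate 1). DDX60, an antiviral helicase, had 52.6, 11.8 and 10.7 CPM at 24 h, against 0.535, 1.06 and 0.878 CPM in DMSO (4.85 ± 0.67, and 3.67 without it). OAS2, which makes oligoadenylates that activate an RNase, had 80.8, 16.7 and 22.2 CPM at 24 h, against 1.87, 1.70 and 0.658 CPM in DMSO (4.82 ± 0.63, and 3.77 without it). In each of these genes the lowest 24 h library was above the highest DMSO library.

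In other members the excess of 24 h replicate 1 was smaller or absent. STAT2, a signal transducer, had 70.4, 67.2 and 70.7 CPM at 24 h, against 12.3, 17.2 and 17.1 CPM in DMSO (2.15 ± 0.16, edgeR adjusted p = 3.89e-09). IRF9, a DNA-binding subunit of the interferon-activated complex, had 9.63, 9.99 and 6.82 CPM at 24 h, against 1.87, 1.91 and 0.220 CPM in DMSO (2.72 ± 0.41). XAF1, an interferon-induced gene linked to apoptosis, had 609, 484 and 359.9 CPM at 24 h, against 72.8, 67.8 and 63.2 CPM in DMSO (2.83 ± 0.19, adjusted p = 7.03e-10). IFI16, a sensor of DNA, had 85.0, 47.9 and 41.7 CPM at 24 h, against 10.4, 10.2 and 6.36 CPM in DMSO (2.70 ± 0.27).

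**Figure D2:**
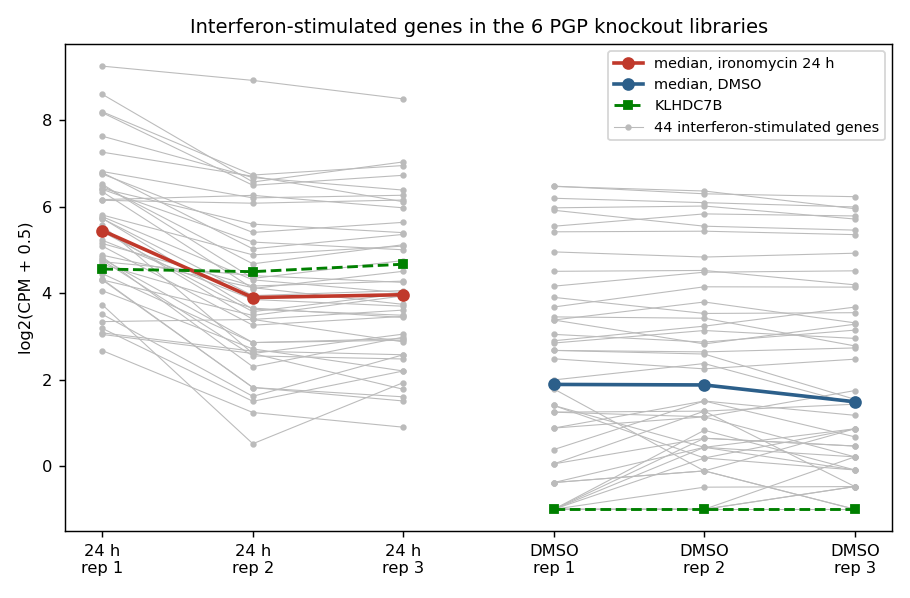
Level of each of 44 interferon-stimulated genes, as log2(CPM + 0.5), in the 3 ironomycin 24 h libraries and the 3 DMSO libraries of the PGP knockout; thin lines join the values of a gene, thick lines join the medians, and the dashed line is KLHDC7B. The median of 24 h replicate 1 lies above those of replicates 2 and 3, which lie above all 3 DMSO medians, and KLHDC7B is level across the 24 h libraries.

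Related immune lists moved less uniformly. In antigen presentation, 8 of 23 members rose and 1 fell (median 0.39); 4 members rose without DMSO replicate 3, and 5 without DMSO replicate 1, DMSO replicate 2 or 24 h replicate 1. HLA-E, which presents peptides to natural killer cells, rose by 0.80 ± 0.11. Reads can be shared between related genes of this family, so its level is uncertain. PSME2, a subunit of a proteasome activator, fell (-0.59 ± 0.11). In the list of NF-κB and inflammation, 12 of 16 members rose and none fell (median 1.41). TNFAIP3, which limits NF-κB signalling, had 54.5, 57.6 and 46.2 CPM at 24 h, against 21.4, 18.1 and 18.2 CPM in DMSO (1.46 ± 0.20). NFKBIA, the inhibitor that holds NF-κB in the cytosol, rose by 0.88 ± 0.13 and TNFAIP2 by 1.35 ± 0.20. NLRP12, a regulator of inflammatory signalling in myeloid cells, rose by 3.32 ± 0.47.

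Genes of sterol synthesis and uptake rose. When sterols are low, SREBP2 enters the nucleus and raises genes of sterol synthesis and uptake. Of 25 tested members of the list, 20 rose and 3 fell, with a median of 1.63. MSMO1, a methyl sterol oxidase that uses iron, had 100.3, 103 and 113 CPM at 24 h, against 15.5, 11.7 and 13.4 CPM in DMSO (2.97 ± 0.19, edgeR adjusted p = 7.03e-10). SQLE, squalene epoxidase, had 310.2, 334 and 358 CPM at 24 h, against 106, 73.3 and 71.8 CPM in DMSO (2.00 ± 0.16). FDFT1, squalene synthase, had 578, 554 and 604 CPM at 24 h, against 232, 188 and 208 CPM in DMSO (1.47 ± 0.12). The 24 h libraries stood above the DMSO libraries without overlap in these 3 genes.

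The rise included late steps of the pathway. DHCR7, which makes cholesterol in the last step of one branch, had 86.5, 66.2 and 76.4 CPM at 24 h, against 16.6, 11.9 and 18.6 CPM in DMSO (2.28 ± 0.19). FDPS (0.73 ± 0.32) and EBP (0.19 ± 0.11) were not called.

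The 3 members that fell were ABCA1, MYLIP and PMVK; none fell without DMSO replicate 2, and 1 without DMSO replicate 3. ABCA1, which exports cholesterol, had 0.838, 0.930 and 0.974 CPM at 24 h, against 4.01, 4.04 and 1.76 CPM in DMSO (-1.80 ± 0.55), and its call was lost without DMSO replicate 2 (edgeR adjusted p = 0.0688). MYLIP, a ubiquitin ligase that limits sterol uptake, had 36.9, 22.8 and 32.9 CPM at 24 h, against 41.7, 49.3 and 45.4 CPM in DMSO (-0.56 ± 0.19). Its call was lost without DMSO replicate 2 (adjusted p = 0.1), DMSO replicate 3 (0.0581) or 24 h replicate 2 (0.144). ABCA1 and MYLIP are known targets of the sterol-activated receptor LXR. PMVK, phosphomevalonate kinase, had values of both groups that overlapped (-0.40 ± 0.15), and its call held only without DMSO replicate 1 or 24 h replicate 2 among the 6 refits.

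Fatty acid genes moved the same way as the sterol enzymes, with 13 of 15 members up, none down and a median of 0.97. PNPLA3, a lipid droplet enzyme, had 31.0, 27.4 and 23.0 CPM at 24 h, against 4.01, 3.40 and 3.51 CPM in DMSO (2.90 ± 0.24). ACSS2, which makes acetyl-CoA from acetate, rose by 1.84 ± 0.22, FADS2, a fatty acid desaturase, by 1.13 ± 0.13, and LPIN1, a phosphatidate phosphatase, by 1.24 ± 0.19. The promoter of SREBF2, which encodes SREBP2 itself, is shown because it was the only window among the sterol members to hold the motif searched. Its transcript rose by 0.91 ± 0.12. The window lies at chr22:41832855-41833154 (plus strand), with the match to TCACNCCAC in capitals.
SREBF2: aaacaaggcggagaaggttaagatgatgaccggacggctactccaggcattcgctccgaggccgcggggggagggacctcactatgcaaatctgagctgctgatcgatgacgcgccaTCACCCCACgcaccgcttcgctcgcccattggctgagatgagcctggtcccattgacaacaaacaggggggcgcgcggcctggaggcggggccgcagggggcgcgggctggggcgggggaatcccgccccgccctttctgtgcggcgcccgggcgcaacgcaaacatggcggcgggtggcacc

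This motif was in 1 of 24 windows of sterol members (4.17%), against 396 of the 35116 windows in all (1.13%).

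Genes of the integrated stress response rose as well. In this pathway, kinases that sense stress phosphorylate the initiation factor eIF2α, which favours translation of ATF4, a transcription factor that then raises transcription of CHOP and of genes for amino acid supply. Of 31 tested members, 24 rose and none fell, with a median of 1.54. ATF4 itself had 494, 809 and 672 CPM at 24 h, against 287, 380.1 and 377 CPM in DMSO (0.92 ± 0.18). ATF5, a related transcription factor, had 844, 1142 and 874 CPM at 24 h, against 160.5, 200.1 and 213 CPM in DMSO (2.32 ± 0.15, edgeR adjusted p = 7.03e-10). TRIB3, a pseudokinase that CHOP and ATF4 induce, had 232, 245 and 313 CPM at 24 h, against 13.9, 20.2 and 26.1 CPM in DMSO (3.70 ± 0.24, adjusted p = 7.03e-10). The groups did not overlap in any of the 3 genes, and for ATF4 the 24 h libraries also differed widely among themselves.

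DDIT3, which encodes CHOP, had 21.99, 23.9 and 27.1 CPM at 24 h, against 7.49, 7.86 and 9.22 CPM in DMSO (1.57 ± 0.22). ATF3, a stress-induced repressor, had 20.9, 13.9 and 13.6 CPM at 24 h, against 3.48, 5.95 and 3.07 CPM in DMSO (1.94 ± 0.32). NUPR1, a small stress protein of chromatin, had 18.6, 31.6 and 27.9 CPM at 24 h, against 0.268, 1.70 and 0.658 CPM in DMSO (4.79 ± 0.34, and 5.68 without DMSO replicate 2). INHBE, an activin subunit, had 12.98, 19.8 and 27.3 CPM at 24 h, against 0.802, 0.850 and 2.41 CPM in DMSO (3.84 ± 0.37, and 4.53 without DMSO replicate 3). GDF15, a stress-induced cytokine, had 22, 48 and 49 counts at 24 h, against 0, 1 and 1 in DMSO (ratio 54.4, exact 95% interval 14.7 to 454.7). CHAC1, which degrades glutathione, had 28.7, 65.3 and 72.3 CPM at 24 h, against 6.96, 14.7 and 25.0 CPM in DMSO (1.81 ± 0.45). Replicate 1 was the lowest of its group for CHAC1 under both treatments.

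Promoters of ATF3 and CHAC1 are shown as the members with the largest fold changes whose window held the amino acid response element, to which ATF4 and CHOP are known to bind. They lie at chr1:212565157-212565456 (ATF3, plus strand) and chr15:40953221-40953520 (CHAC1, plus), with the match to TGATGNAA on either strand in capitals.
ATF3: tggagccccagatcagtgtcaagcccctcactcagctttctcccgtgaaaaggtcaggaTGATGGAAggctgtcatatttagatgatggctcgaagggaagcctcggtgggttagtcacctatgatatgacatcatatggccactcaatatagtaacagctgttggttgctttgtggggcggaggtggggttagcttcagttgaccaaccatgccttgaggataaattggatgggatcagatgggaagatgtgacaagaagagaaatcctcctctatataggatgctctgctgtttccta
CHAC1: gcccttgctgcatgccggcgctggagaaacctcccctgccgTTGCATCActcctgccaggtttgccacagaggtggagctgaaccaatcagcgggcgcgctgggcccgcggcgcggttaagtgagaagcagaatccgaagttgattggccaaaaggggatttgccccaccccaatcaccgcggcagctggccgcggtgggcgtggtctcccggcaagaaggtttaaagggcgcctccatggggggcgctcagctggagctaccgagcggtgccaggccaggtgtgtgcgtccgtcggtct

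Of 24 members with a window, 7 held this motif; it was in 17.9% of their 39 windows and in 3.62% of all windows.

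Genes of tRNA charging, of amino acid and one-carbon metabolism and of amino acid transport moved in both directions. Of 20 cytosolic tRNA synthetases, 11 rose and 4 fell (median 0.34). The number that rose was 6 without DMSO replicate 2, 7 without 24 h replicate 1 and 7 without 24 h replicate 2. WARS1, which charges tryptophan tRNA and is also induced by interferon, had 137, 124 and 134 CPM at 24 h, against 42.5, 39.7 and 49.2 CPM in DMSO (1.59 ± 0.15). CARS1 and AARS1, for cysteine and alanine, rose by 1.05 ± 0.12 and 1.12 ± 0.17. FARSB, a subunit of the phenylalanine enzyme, fell (-0.77 ± 0.11).

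In serine, proline and one-carbon metabolism, 9 of 19 members rose and 5 fell (median 0.30). The mitochondrial folate enzyme MTHFD2 had 309, 311 and 342 CPM at 24 h, against 134, 136 and 163 CPM in DMSO (1.16 ± 0.13). ALDH1L2, another mitochondrial folate enzyme, had 58.6, 58.6 and 48.5 CPM at 24 h, against 12.04, 15.7 and 15.6 CPM in DMSO (1.92 ± 0.20). ASNS, asparagine synthetase, rose by 1.15 ± 0.25. Lower after ironomycin were MTHFD1, the cytosolic folate enzyme (-0.83 ± 0.10), and PYCR3, a proline enzyme (-1.39 ± 0.17). Among amino acid transporters, 6 of 15 rose and 1 fell (median 0.27). SLC7A11, the cystine importer, had 49.8, 63.5 and 83.6 CPM at 24 h, against 5.08, 16.4 and 23.5 CPM in DMSO (2.10 ± 0.37), and SLC38A5, a glutamine transporter, had 11.7, 16.5 and 10.3 CPM at 24 h, against 46.8, 48.01 and 44.3 CPM in DMSO (-1.86 ± 0.19).

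**Figure D3:**
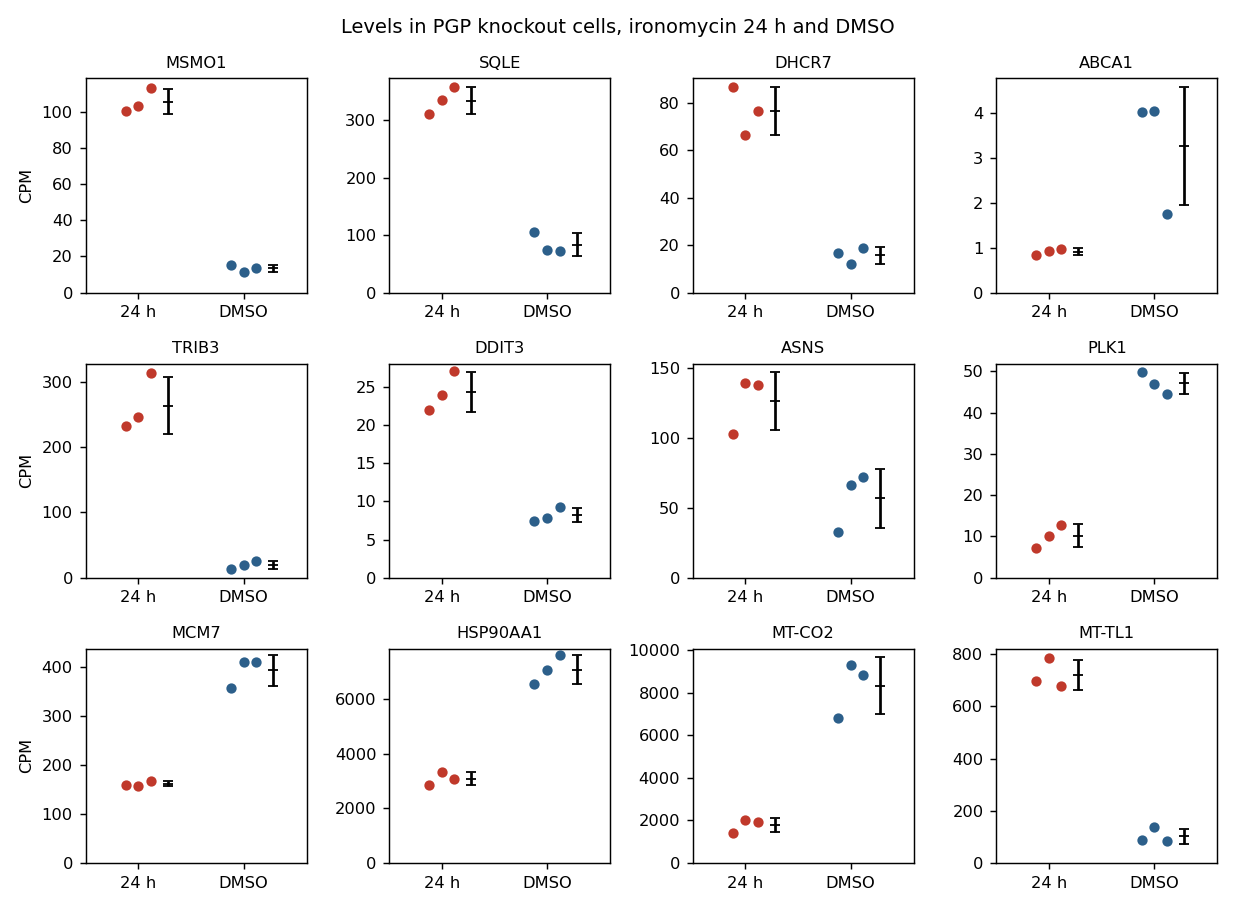
Levels (CPM, linear axes from 0) of 12 genes in the 3 ironomycin 24 h libraries (red) and the 3 DMSO libraries (blue) of the PGP knockout; bars are mean ± SD. In all 12 genes the groups do not overlap: MSMO1, SQLE, DHCR7, TRIB3, DDIT3, ASNS and MT-TL1 are higher at 24 h, and ABCA1, PLK1, MCM7, HSP90AA1 and MT-CO2 are lower.

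Proliferation genes fell. Of 43 tested genes of G2 phase and mitosis, 43 fell, with a median of -1.39, and 43 fell in each refit without 1 library. UBE2C, which marks mitotic cyclins for degradation, had 47.3, 42.1 and 45.4 CPM at 24 h, against 122, 125 and 145 CPM in DMSO (-1.54 ± 0.12, edgeR adjusted p = 7.09e-09). NUSAP1, a spindle protein, had 97.8, 97.2 and 90.2 CPM at 24 h, against 277, 262 and 246 CPM in DMSO (-1.46 ± 0.12). PLK1, a mitotic kinase, had 7.33, 10.2 and 12.9 CPM at 24 h, against 49.8, 47.0 and 44.5 CPM in DMSO (-2.21 ± 0.19), the largest fall of the list. CCNB2 fell by 1.39 ± 0.11 and CDCA8 by 1.48 ± 0.12. In a population of cells, fewer dividing cells and less RNA per cell cannot be told apart.

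In DNA replication 38 of 53 members fell and 1 rose (median -0.85). MCM7, a subunit of the replicative helicase, had 160.2, 158 and 168 CPM at 24 h, against 358, 411 and 412 CPM in DMSO (-1.28 ± 0.11). TK1, thymidine kinase, fell by 1.42 ± 0.14, RFC5, a clamp loader subunit, by 1.22 ± 0.15, and RRM1, the large subunit of ribonucleotide reductase, by 1.16 ± 0.12. The member that rose was CCND2, a G1 cyclin (0.81 ± 0.15).

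Ribosome assembly and chaperones also fell. Of 39 tested nucleolar and MYC-driven genes, 33 fell and none rose (median -0.60). LYAR, a nucleolar protein, had 149, 149 and 143 CPM at 24 h, against 319, 301 and 323 CPM in DMSO (-1.10 ± 0.09). PA2G4, NOP16 and UTP20, which act in rRNA processing or growth, fell by 0.91 ± 0.08, 1.31 ± 0.14 and 1.21 ± 0.12. MYC itself had 88.0, 47.4 and 56.3 CPM at 24 h, against 48.7, 41.6 and 44.1 CPM in DMSO, and was not called (0.52 ± 0.38, edgeR adjusted p = 0.326). Of 53 cytosolic ribosomal proteins, 6 rose and none fell (median 0.15), a share of 11.3%. RPL12, of the large subunit, rose by 0.44 ± 0.12, and RPL12, RPLP1, RPL3 and RPL22, the 4 with the smallest adjusted p, each lost their call in at least 2 of the 6 refits without 1 library. The number that rose was 2 without DMSO replicate 1 or 24 h replicate 3, 3 without DMSO replicate 2 or 24 h replicate 1, and 11 with the replicate number as a block.

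Of 28 chaperones, cofactors and heat shock factors, 21 fell and none rose (median -0.74). Without DMSO replicate 3, 1 rose. The list is mainly cytosolic, but those that fell include HSPD1 and HSPE1 of the mitochondrial matrix. Both are counted again among the mitochondrial chaperones below. HSP90AA1, the inducible HSP90, had 2862, 3329 and 3092 CPM at 24 h, against 6554, 7064 and 7620 CPM in DMSO (-1.19 ± 0.10, edgeR adjusted p = 1.15e-08). HSPH1, a nucleotide exchange factor for HSP70, had 248, 310.5 and 267 CPM at 24 h, against 628, 752 and 774 CPM in DMSO (-1.38 ± 0.12). CHORDC1, a cochaperone of HSP90, fell by 1.41 ± 0.14, and CCT7, a subunit of the chaperonin for actin and tubulin, by 0.75 ± 0.09.

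The unfolded protein response of the endoplasmic reticulum showed 12 members up of 31 and none down (median 0.53). The number that rose was 7 without DMSO replicate 3, 7 without 24 h replicate 1 and 17 with the replicate number as a block. SEC24D, a coat protein of transport vesicles, had 83.3, 72.5 and 64.7 CPM at 24 h, against 18.2, 21.7 and 21.9 CPM in DMSO (1.83 ± 0.13). EIF2AK3, the kinase PERK, rose by 1.51 ± 0.23, and XBP1, a transcription factor of this response, by 0.86 ± 0.14. HSPA5, the main chaperone of this compartment, had 1490, 1581 and 1350 CPM at 24 h, against 945, 1415 and 1307 CPM in DMSO and was not called (0.27 ± 0.17).

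Transcripts of the mitochondrial genome shifted against each other. This genome encodes 13 proteins, and the nuclear genome encodes the other subunits of the respiratory chain. Mitochondrial mRNAs took 2.41%, 3.20% and 2.91% of counts in the 24 h libraries, against 6.04%, 7.74% and 6.92% in the DMSO libraries. Of the 13 mRNAs, 9 fell and 1 rose (median -0.92). MT-CO2, a subunit of cytochrome c oxidase, had 1426, 1996 and 1919 CPM at 24 h, against 6788, 9304 and 8838 CPM in DMSO (-2.22 ± 0.25). MT-CO3, from the same complex, had 2902, 3895 and 3554 CPM at 24 h, against 12830, 18050 and 15720 CPM in DMSO (-2.17 ± 0.22). MT-ATP6, a subunit of ATP synthase, had 1738, 2711 and 2388 CPM at 24 h, against 9206, 11090 and 11200 CPM in DMSO (-2.20 ± 0.21). Each fell to under the lowest DMSO library in every 24 h library. MT-ND5, of complex I, rose (0.58 ± 0.14), and 2 mRNAs rose without DMSO replicate 2; MT-ND1, MT-ND6 and MT-CO1 were not called.

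Of the mitochondrial tRNAs and rRNAs, 9 were tested, of which 5 rose and 2 fell (median 1.29). MT-TL1, a leucine tRNA, had 696, 786 and 679.6 CPM at 24 h, against 86.7, 136 and 84.3 CPM in DMSO (2.81 ± 0.23). MT-TF, the phenylalanine tRNA, had 1935, 2126 and 1782 CPM at 24 h, against 498, 432 and 404 CPM in DMSO (2.13 ± 0.22). MT-TP, the proline tRNA, fell (-1.49 ± 0.15). These genes abut one another and lie on both strands, and whether counting used the strand is not stated, so a tag may belong to a neighbour or to an unprocessed precursor. Long nuclear RNAs rose too: MALAT1 took 0.563%, 0.974% and 0.464% of counts at 24 h, against 0.286%, 0.309% and 0.216% in DMSO, and 4 of 5 such RNAs rose. Their part in the other results was not tested.

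**Figure D4:**
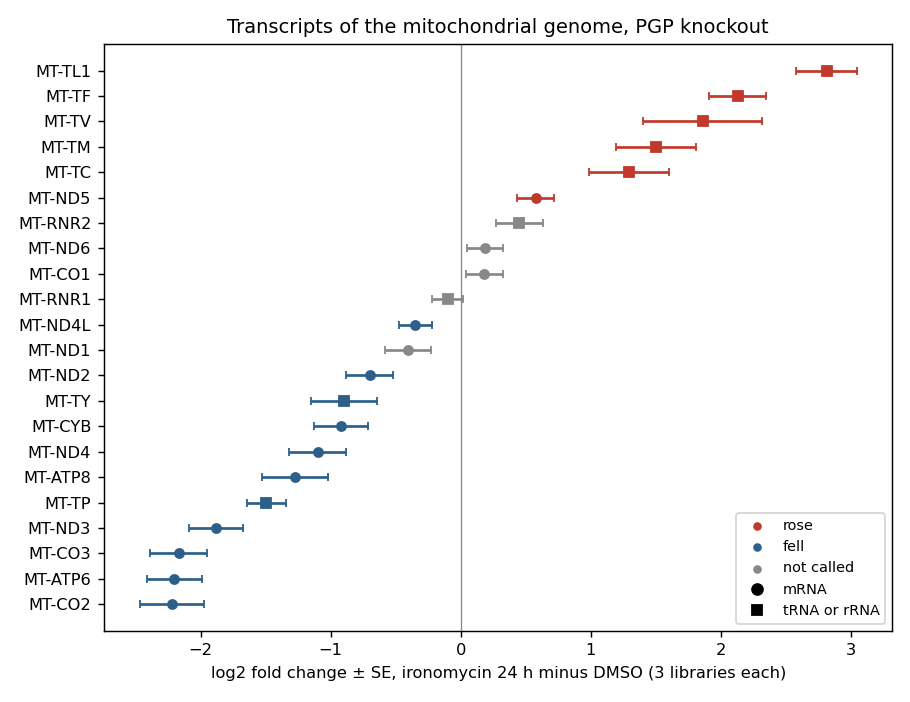
Log2 fold change ± SE (ironomycin 24 h minus DMSO, 3 libraries each) of 22 transcripts of the mitochondrial genome in PGP knockout cells; circles are mRNAs, squares tRNAs or rRNAs, red rose, blue fell and grey was not called. MT-TL1 is highest at 2.81 and MT-CO2 lowest at -2.22.

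Nuclear genes for the same machinery fell by smaller amounts. In complex I, 23 of 39 members fell and none rose (median -0.43). NDUFS5, a small subunit, had 262, 278 and 344 CPM at 24 h, against 693, 599 and 649 CPM in DMSO (-1.13 ± 0.11), the largest fall of the list. In complexes II to V, 30 of 40 fell and 1 rose (median -0.47); the one that rose was COX7A2L, an assembly factor of supercomplexes (0.70 ± 0.18). COX7B, of cytochrome c oxidase, had 200.2, 209 and 293 CPM at 24 h, against 446, 414 and 447 CPM in DMSO (-0.90 ± 0.12), and ATP5PF, of ATP synthase, fell by 0.72 ± 0.10. Of 71 mitochondrial ribosomal proteins, 37 fell and none rose (median -0.39), with MRPL44 at -1.02 ± 0.14 and MRPS12 at -0.92 ± 0.13. Of 22 genes for expression of the mitochondrial genome, 12 fell and none rose (median -0.50). ELAC2, which trims mitochondrial tRNAs, had 59.3, 67.9 and 73.3 CPM at 24 h, against 128, 124 and 129.9 CPM in DMSO (-0.93 ± 0.11). SLIRP, which stabilises mitochondrial mRNAs, fell by 0.96 ± 0.13 and TFAM, which packages mitochondrial DNA, by 0.75 ± 0.16.

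Among mitochondrial chaperones and import proteins, 9 of 24 fell and 1 rose (median -0.24). HSPE1 and HSPD1, the chaperonin pair of the matrix, fell by 1.29 ± 0.16 and 0.83 ± 0.10, and LONP1, a matrix protease, rose (0.83 ± 0.14). In mitophagy and mitochondrial shape, 2 of 17 rose and 2 fell (median -0.15), a share of 23.5%. BNIP3L, a mitophagy receptor, had 87.5, 84.8 and 88.8 CPM at 24 h, against 35.3, 36.3 and 35.99 CPM in DMSO (1.28 ± 0.14). OMA1, an inner membrane protease, rose by 1.53 ± 0.41. MIEF1 and MFN2, which act in fission and fusion, had fold changes of -0.34 ± 0.09 and -0.35 ± 0.12, and the call of MFN2 was lost without DMSO replicate 3 (edgeR adjusted p = 0.0979) or 24 h replicate 1 (0.0931).

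Among iron genes the ferritin light chain and 2 iron sensors rose. In cells with low iron, iron regulatory proteins stabilise the mRNA of the transferrin receptor and block translation of ferritin. Of 14 tested genes of iron uptake and storage, 3 rose and none fell (median 0.16), a share of 21.4%; 1 fell without 24 h replicate 3. FTL, the ferritin light chain, had 7006, 7742 and 8693 CPM at 24 h, against 3800, 4568 and 4566 CPM in DMSO (0.86 ± 0.10, edgeR adjusted p = 1.71e-06). FBXL5, an iron sensor that degrades IRP2, had 32.9, 30.4 and 27.7 CPM at 24 h, against 14.4, 18.1 and 14.1 CPM in DMSO (0.96 ± 0.16). ACO1, the bifunctional protein IRP1, had 22.4, 22.8 and 27.5 CPM at 24 h, against 12.8, 14.2 and 16.9 CPM in DMSO (0.72 ± 0.16). TFRC, the transferrin receptor, had 522, 445 and 632 CPM at 24 h, against 528, 391 and 514 CPM in DMSO. The groups overlapped and it was not called (0.16 ± 0.16, adjusted p = 0.485). FTH1, the heavy chain, did not pass the filter on low counts and was not tested. Its means were 0.90 CPM at 24 h and 0.089 CPM in DMSO, and whether these counts reflect its true level was not tested.

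In iron-sulfur assembly and mitochondrial iron, 7 of 27 members fell and 1 rose (median -0.21), a share of 29.6%. CIAPIN1, of cytosolic cluster assembly, had 38.3, 40.4 and 47.4 CPM at 24 h, against 66.6, 75.6 and 74.8 CPM in DMSO (-0.78 ± 0.11). GLRX5, which passes on mitochondrial clusters, fell by 0.61 ± 0.11, and FDXR, ferredoxin reductase, by 1.04 ± 0.22. SLC25A37, the mitochondrial iron importer mitoferrin 1, had 196, 221 and 180.4 CPM at 24 h, against 126, 129 and 115 CPM in DMSO (0.69 ± 0.09); 2 members rose without DMSO replicate 2 or 24 h replicate 2. In heme metabolism 3 of 14 rose and 3 fell (median -0.22). ALAS1, the first enzyme of heme synthesis, had 58.9, 49.04 and 52.6 CPM at 24 h, against 25.7, 21.2 and 19.8 CPM in DMSO (1.27 ± 0.22). HMOX1, which breaks heme down, had 3.14, 6.04 and 2.14 CPM at 24 h, against 0.535, 1.06 and 3.29 CPM in DMSO, and was not called.

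Lysosome, autophagy and antioxidant genes rose in part. Of 24 NRF2 targets, 13 rose and 2 fell (median 0.73); none fell without DMSO replicate 2, DMSO replicate 3 or 24 h replicate 1. NQO1, a quinone reductase, had 81.7, 109 and 110.5 CPM at 24 h, against 28.6, 33.4 and 33.1 CPM in DMSO (1.66 ± 0.17). PIR, a nuclear iron-binding protein, rose by 1.92 ± 0.24. Of 36 lysosomal genes, 17 rose and 2 fell (median 0.40). CTSD, a lysosomal protease, had 333, 342 and 348 CPM at 24 h, against 105, 144 and 124 CPM in DMSO (1.45 ± 0.16), and NEU1 and ASAH1, which degrade glycans and ceramide, rose by 1.34 ± 0.15 and 1.13 ± 0.11. Of 33 autophagy genes, 12 rose and none fell (median 0.26). MAP1LC3B, a membrane marker of autophagosomes, had 71.6, 66.9 and 67.0 CPM at 24 h, against 28.6, 28.3 and 22.2 CPM in DMSO (1.38 ± 0.14), and OPTN, a receptor for cargo, rose by 1.45 ± 0.23.

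Sugar metabolism genes moved in both directions. Of 34 genes of glycolysis and the pentose phosphate pathway, 5 rose and 10 fell (median -0.24). SLC2A3, a glucose transporter, had 54.2, 66.2 and 70.3 CPM at 24 h, against 14.7, 19.97 and 16.5 CPM in DMSO (1.89 ± 0.15). PGD, of the pentose phosphate pathway, had 271, 308 and 321 CPM at 24 h, against 127, 135 and 141 CPM in DMSO (1.16 ± 0.11). LDHA, lactate dehydrogenase A, had 324, 333 and 446 CPM at 24 h, against 860, 817 and 993 CPM in DMSO (-1.27 ± 0.17), and TPI1, triosephosphate isomerase, fell by 0.87 ± 0.11. In the TCA cycle 1 of 26 members rose and 7 fell (median -0.31), a share of 30.8%. IDH1, the cytosolic isocitrate dehydrogenase, rose by 0.79 ± 0.11. Among hypoxia genes, 9 of 16 rose and 1 fell (median 0.73). VEGFA, an angiogenic growth factor, had 93.2, 116 and 78.7 CPM at 24 h, against 17.9, 11.7 and 9.22 CPM in DMSO (2.91 ± 0.28), and NDRG1 rose by 1.29 ± 0.17. Prolyl hydroxylases, which mark the hypoxia factor HIF-1α for degradation, are known to need iron.

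The study's title concerns death through BAX and BAK, which form pores in the outer membrane of mitochondria. Neither transcript was called. BAX had 19.3, 24.6 and 17.7 CPM at 24 h, against 16.6, 21.9 and 22.8 CPM in DMSO (-0.00 ± 0.19, edgeR adjusted p = 0.993), and its sign changed in 4 of 6 refits without 1 library. BAK1 had 6.91, 14.4 and 14.4 CPM at 24 h, against 12.6, 13.8 and 11.4 CPM in DMSO (-0.08 ± 0.22). Of their inhibitors, BCL2 had 126, 126 and 127 CPM at 24 h, against 122, 89.2 and 97.7 CPM in DMSO (0.29 ± 0.12, adjusted p = 0.0722), which was a call with the replicate number as a block (0.0362) and without DMSO replicate 1 (0.0203). MCL1 had 158, 126 and 145 CPM at 24 h, against 156, 128 and 148 CPM in DMSO (-0.01 ± 0.16).

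Genes that act upstream of these were called more often. Of 18 death-promoting genes 6 rose and 3 fell (median 0.15); 1 fell without DMSO replicate 2 or 24 h replicate 3. BMF, a BH3-only protein, had 24.9, 14.4 and 19.3 CPM at 24 h, against 3.48, 7.86 and 7.02 CPM in DMSO (1.65 ± 0.33). PMAIP1 (NOXA) and BBC3 (PUMA), which bind inhibitors of BAX and BAK, rose by 1.01 ± 0.22 and 0.61 ± 0.14. Of 10 inhibitors of death 3 rose and 2 fell (median 0.42), and 1 fell in each of the 6 refits without 1 library. BIRC3, which ubiquitinates signalling proteins of NF-κB, had 3.35, 4.88 and 3.31 CPM at 24 h, against 0.268, 0.425 and 0 CPM in DMSO (3.91 ± 0.84, 4.71 without DMSO replicate 2 and 3.32 without DMSO replicate 3). BIRC5, survivin, fell by 1.23 ± 0.17 and is also a mitotic gene.

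In the p53 list 6 of 26 rose and 5 fell (median -0.02). SESN2, also a target of ATF4, had 72.2, 94.6 and 94.5 CPM at 24 h, against 22.5, 24.0 and 35.8 CPM in DMSO (1.66 ± 0.19). DDB2, which recognises damage from ultraviolet light, fell by 1.45 ± 0.22 and AEN, a nuclease, by 1.07 ± 0.15. In the ferroptosis list 5 of 14 rose and 3 fell (median 0.17); 1 fell without DMSO replicate 3 or 24 h replicate 2. CBS, of cysteine synthesis, rose by 1.59 ± 0.24 beside SLC7A11 and CHAC1, and GPX4, which reduces lipid peroxides, was not called (0.18 ± 0.12). Of 10 metal response genes 4 fell and none rose (median -0.39). MT1E and MT1G, metallothioneins, fell by 0.76 ± 0.16 and 0.59 ± 0.13; metallothionein genes are near-identical copies, so their counts are uncertain.

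Lineage and early response genes were mixed. Of 24 genes of myeloid maturation 6 rose and 4 fell (median -0.09). S100A8, a calcium-binding protein of neutrophils and monocytes, had 2.30, 6.97 and 7.01 CPM at 24 h, against 27.3, 48.4 and 49.6 CPM in DMSO (-2.95 ± 0.34). MPO, myeloperoxidase, fell by 1.54 ± 0.25, while CEBPB, a myeloid transcription factor, had 94.2, 64.2 and 62.1 CPM at 24 h, against 17.9, 19.6 and 18.0 CPM in DMSO (1.99 ± 0.25) and CTSG, a granule protease, rose by 0.89 ± 0.12. IGLL1, the surrogate light chain of pre-B cells, had 4.19, 3.95 and 6.82 CPM at 24 h, against 33.4, 58 and 62.5 CPM in DMSO (-3.35 ± 0.34), the largest fall among those named by size. PTPRC, the leucocyte antigen CD45, rose by 0.74 ± 0.14. Of 13 targets of KMT2A fusions, 3 rose and 1 fell (median 0.28), a share of 30.8%; MYB fell by 0.38 ± 0.10. Those that rose, SENP6, PBX3 and JMJD1C, lost their calls in 4, 6 and 5 of the 6 refits without 1 library. Of 19 immediate early genes 6 rose and none fell (median 0.41), a share of 31.6%, near that of all genes. Among those that rose were KLF6 (1.43 ± 0.23) and JUND (0.79 ± 0.14). The number that rose was 4 without DMSO replicate 3 or 24 h replicate 1, 7 without DMSO replicate 1 and 8 with the replicate number as a block.

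Outside these lists, KLHDC7B, a gene with Kelch repeats, had 110, 95 and 128 counts in the 24 h libraries, against none in the DMSO libraries, at least 101.6-fold higher with the DMSO group set at 3 counts (64.8 without DMSO replicate 2 and 66.0 without DMSO replicate 3). The 24 h libraries were alike for it, at 23.0, 22.1 and 24.9 CPM, unlike the interferon genes that it ranked beside. ESRP1, a splicing regulator of epithelial cells, had 16, 33 and 42 counts at 24 h, against none in DMSO (at least 27.8-fold higher, 17.7 without DMSO replicate 2 and 18.0 without DMSO replicate 3). ORM1, an acute phase plasma protein, had 21.6, 43.0 and 50.9 CPM at 24 h, against 0.535, 0.850 and 0.878 CPM in DMSO (5.60 ± 0.54). LRRC2, a protein with leucine-rich repeats, had 37, 32 and 30 counts at 24 h, against 0, 3 and 0 in DMSO (ratio 30.2, exact 95% interval 10.0 to 148.9); the bound was 19.3 without DMSO replicate 2, and the ratio 19.6 without DMSO replicate 3.

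The largest falls besides IGLL1, S100A8, PLK1 and the mitochondrial mRNAs were in genes of diverse kinds. FAM83D, a spindle protein, had 6.28, 3.49 and 6.82 CPM at 24 h, against 28.1, 24.6 and 36.4 CPM in DMSO (-2.41 ± 0.21). MS4A4A, a membrane protein of macrophages, fell by 2.37 ± 0.37. ACP3, an acid phosphatase, had 5.65, 2.79 and 3.70 CPM at 24 h, against 17.7, 20.8 and 17.8 CPM in DMSO, and also fell. RSPO1, which strengthens Wnt signals, fell by 2.04 ± 0.31 and HPDL, a mitochondrial dioxygenase-like enzyme, by 1.94 ± 0.26. MTCO2P12, a nuclear copy of MT-CO2, also fell (-2.79 ± 0.36), and its tags may belong to MT-CO2.

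The PGP knockout was then set beside the other genotypes, each against its own DMSO libraries. In the PGP knockout 3661 genes were called, against 3418 in the HK2 knockout (29.4%) and 3465 in wild type (29.8%). Of the 3661, 2739 were also called in wild type, which is 74.8% of the PGP calls and 79.0% of the wild type calls, and 2737 of them in the same direction. With the HK2 knockout 2530 were shared, 69.1% of the PGP calls and 74.0% of the HK2 calls, all in the same direction. Across the 11610 genes, Pearson's r between log2 fold changes was 0.836 for PGP and wild type and 0.817 for PGP and HK2, as a description across genes, which are not independent.

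No gene passed the test of a difference in response. Between the PGP knockout and wild type 0 of 11610 genes were called in edgeR (0%), and 0 in DESeq2; 221 genes (1.90%) had an unadjusted p under 0.05. Between the PGP and HK2 knockouts 0 were called by either tool (0%), with 457 genes (3.94%) at an unadjusted p under 0.05. With no filter on low counts 18 genes were called against wild type and 30 against the HK2 knockout, and 1 gene was called against wild type with the compared groups alone or without the wild type 6 h libraries. The median SE of a difference was 0.286 on the log2 scale. In simulated data of PGP knockout and wild type, 29 of 50 genes whose responses differed 2-fold were called, and 45 of 50 differing 4-fold. Smaller differences were thus not well detectable at this depth. The changed genes had a mean of at least 5 CPM and were changed together, and libraries were drawn independently. These rates therefore do not carry over to genes with fewer counts, to data in which fewer genes differ, or to deviations that libraries share. A p that misses the threshold does not show that the responses were alike.

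List medians differed in sign between genotypes for some lists described above. In the order PGP knockout, HK2 knockout and wild type, heme genes had medians of -0.22, 0.02 and -0.06. Those of the p53 list were -0.02, 0.08 and -0.22, and those of myeloid maturation -0.09, 0.18 and 0.06. The lists that follow had medians of the same direction in the genotypes, and differed in size for some. Interferon genes had medians of 2.71 in the PGP knockout, 2.27 in the HK2 knockout and 2.88 in wild type. Without 24 h replicate 1, the median of the PGP knockout was 2.19, below that of the HK2 knockout. Sterol genes had medians of 1.63 in the PGP knockout, 1.69 in the HK2 knockout and 2.00 in wild type, and integrated stress genes 1.54, 1.40 and 1.31 in the same order. G2 and mitosis genes had medians of -1.39 in both knockouts and -1.61 in wild type, and mitochondrial mRNAs -0.92 in the PGP knockout, -0.68 in the HK2 knockout and -0.84 in wild type. Mitochondrial tRNAs and rRNAs had medians of 1.29 in the PGP knockout, 0.95 in the HK2 knockout and 0.69 in wild type, and hypoxia genes 0.73, 0.58 and 0.48 in the same order. Medians over members of the difference in response need not match these gaps. For PGP knockout minus wild type they were -0.047 (interferon), -0.202 (sterol), 0.032 (integrated stress) and 0.227 (G2 and mitosis). They were -0.005 for mitochondrial mRNAs, 0.055 for mitochondrial tRNAs and rRNAs, and 0.03 for hypoxia genes. For PGP minus HK2 knockout they were, in the same order, 0.508, -0.034, 0.02, -0.089, -0.244, -0.179 and 0.162. The interferon values include 24 h replicate 1 of the PGP knockout, which stood above its group for this list. No list was tested for a difference.

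**Figure D5:**
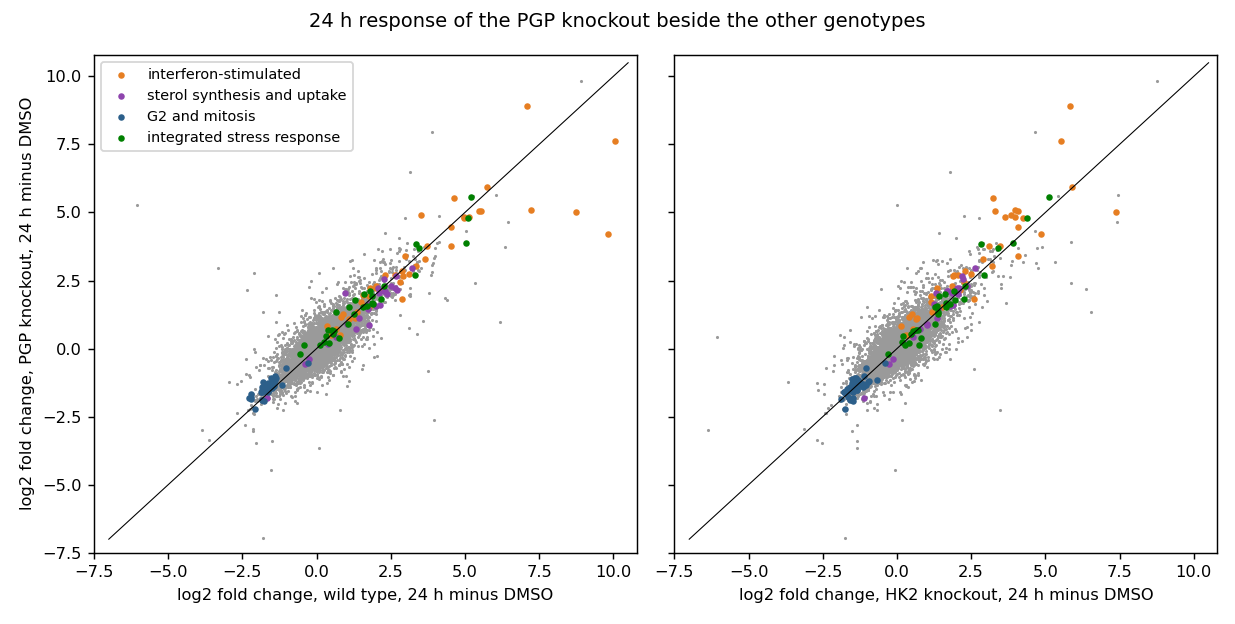
Log2 fold change (ironomycin 24 h minus DMSO) of 11610 genes in the PGP knockout, on the vertical axis, against wild type on the left and the HK2 knockout on the right; grey points are all genes, coloured points are members of 4 lists and the line marks equal fold changes. Members of the 4 lists follow the line with scatter. The median difference from it is largest for interferon-stimulated genes against the HK2 knockout, at 0.508 above the line. Some interferon-stimulated genes have very low DMSO counts.

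The genes with the smallest unadjusted p for a difference are given by rule, none of them called. RPS6KA5, the kinase MSK1, had 11.3, 10.2 and 13.8 CPM at 24 h in the PGP knockout, against 3.48, 3.82 and 4.83 CPM in its DMSO libraries (1.53 ± 0.28), and a fold change of 0.07 in wild type. The difference was 1.46 ± 0.39 (edgeR adjusted p = 1). CORO1A, an actin regulator of blood cells, had 45.9, 22.8 and 44.4 CPM at 24 h, against 87.5, 175 and 32.7 CPM in DMSO. Its fold change was -1.38 in the PGP knockout and 1.04 in wild type (difference -2.42 ± 0.64, adjusted p = 1), and the PGP call was lost without DMSO replicate 2 (0.299) or 24 h replicate 2 (0.0959). BMT2 (difference -1.08 ± 0.26) and CCDC88B (-1.08 ± 0.30) were lower in the PGP knockout response. The others, GAPDHP1, RPL17P6, RPSAP12 and RPSAP15, are pseudogenes whose tags may come from GAPDH, RPL17 and RPSA, and for GAPDHP1 24 h replicate 2 held 58.1 CPM while replicates 1 and 3 held 0 and 0.195 CPM.

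Against the HK2 knockout, SLFN5, an interferon-induced gene, had 25.3, 12.3 and 8.38 CPM at 24 h in the PGP knockout, against 1.07, 2.55 and 1.10 CPM in its DMSO libraries. Its fold change was 3.23 ± 0.41 in the PGP knockout and 1.30 in the HK2 knockout (difference 1.93 ± 0.58, edgeR adjusted p = 0.968), and 2.63 in the PGP knockout without 24 h replicate 1. SPG11, which acts in lysosome recycling, had 24.3, 22.3 and 23.6 CPM at 24 h, against 15.8, 14.7 and 16.7 CPM in DMSO, with a difference of 0.79 ± 0.22. SLC16A9, a carnitine exporter, had no count in the PGP knockout DMSO libraries, against which no fold is given here, and 1.47, 1.86 and 3.51 CPM at 24 h. PUS7L had a difference of 0.59 ± 0.18. On the lower side were NAT8L (-1.09 ± 0.31), ZNF592 (-1.24 ± 0.36), the pseudogene RPSAP19 (-1.21 ± 0.35) and ENSG00000269028, an identifier without a symbol, with 399, 299.6 and 131 CPM at 24 h, against 291, 3542 and 96.3 CPM in DMSO.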

How the data were processed

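The deposited table holds raw counts of 3′ tags per gene, made by the authors with bcl2fastq 2.20.0.422, HISAT2, HTSeq and the hg19 build, per the submitters' processing notes; the protocols name total RNA and a QuantSeq 3′ kit. The strand setting is not given in the sources used here. All 21 libraries (3829274 to 6069264 counts) were fitted together with a mean per group in edgeR 4.0.16 (R 4.3.3), with TMM scaling and filterByExpr (minimum count 10), which kept 11610 of 54042 genes. CPM values were computed from the counts. Genes were named by a written rule: up to 4 called members per list by adjusted p, the 12 largest rises and falls, the smallest p of each difference, the target genes and 8 others; further genes were chosen for their role after their values were seen. The members and lists were chosen with earlier results of these data known. Exact 95% intervals and floors of 3 counts cover counting error only. Same-numbered libraries of the PGP knockout deviated together (correlations 0.243, 0.164 and 0.247), from the data alone. Alternatives were RLE scaling, no filter, DESeq2 1.42.0, a replicate block, fewer libraries in the fit and leaving out each library. On simulated counts for the PGP comparison, 39 of 50 genes changed 2-fold, with means of at least 5 CPM, were recovered (11387 genes). Some members of the lists are counted but not reported here by name.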

Additional observations from a re-analysis of the deposited data

How the results depend on the processing

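The PGP knockout comparison gave 3661 calls in the fit used, 3630 with RLE scaling, 3492 with no filter on low counts, 3570 with DESeq2, 3602 with the compared groups alone, 4137 without the wild type 6 h libraries, and 2874 to 3227 without 1 library. With the replicate number as a block there were 4081 calls, and 4850 with that block in the PGP knockout libraries alone; 3658 of the 3661 were also called with the block. Of 149 called genes named here by rule, 135 kept call and direction under all 13 alternatives. Of the 149, 14 lost the call under at least 1, and 5 of these only on leaving out a library. The rule favours genes with small adjusted p or large changes, so this share does not describe called genes in general. Of all 3661 called genes, 1424 lost the call in at least 1 refit without 1 library. The count of genes whose response differed from wild type was 0 in the fit used, 18 with no filter, 1 with the compared groups alone and 1 without the wild type 6 h libraries; against the HK2 knockout it was 0, and 30 with no filter. The cause was not tested. Both counts were 0 with the block and in every refit without 1 library. Some fold changes near 0 or resting on 1 library changed sign. Over the refits without 1 library, BAX ranged from -0.169 to 0.077, with 0.046 and 0.061 without DMSO replicates 2 and 3 and 0.015 without 24 h replicate 1. BAK1 ranged from -0.27 to 0.168, MCL1 from -0.114 to 0.053, GAPDHP1 from -1.961 to 6.152 (lowest without 24 h replicate 2) and ENSG00000269028 from -2.814 to 0.515 (highest without DMSO replicate 2). The median of the p53 list ranged from -0.145 to 0.009, and that of myeloid maturation from -0.268 to 0.056.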

Other observations

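For the 44 interferon-stimulated genes, the first 24 h library also stood above its group in wild type, but not clearly in the HK2 knockout. Set against the mean of its 2 companions, replicate 1 had a median deviation of 1.51 in the PGP knockout (44 of 44 members higher), 0.11 in the HK2 knockout (28 of 44, where replicate 3 had 0.07 and 27 of 44) and 0.67 in wild type (43 of 44), on the log2 scale with a pseudocount of 0.5 CPM. What this number marks is not given in the sources used here, and its part in the results was not tested. PPIAP11, a pseudogene, had 1, 1 and 1 counts in the 24 h libraries of the PGP knockout, against 0, 218 and 2 in the DMSO libraries, so that 1 library held nearly all of its counts.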
